A study of Mus musculus with 6 samples.

Results

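The genes described here are Cd44, the main cell-surface receptor for hyaluronan, and a small set that makes, cuts or binds the same sugar polymer: the synthases Has1, Has2 and Has3, the hydrolases Hyal1 and Hyal2, and the secreted binding protein Tnfaip6. The 7 genes were chosen by name, with earlier results of these data known. A gene was measured where a probe set of the array carried its symbol and no other, and where a gene has several such probe sets the one with the highest mean signal is used. This held for 6 of the 7 genes, each with 1 probe set, among 19926 genes in all. Both probe sets that list Hyal1 also list its neighbour Naa80, which it overlaps in the RefSeq gene table, so Hyal1 was not analysed here.

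The study treated primary astrocytes from C57BL/6J mice with tumour necrosis factor (TNF), an inflammatory cytokine, at 50 ng/mL for 24 h. Astrocytes are glial cells that support neurons and blood vessels, here grown in culture away from the tissue they normally contact. RNA from 3 control and 3 TNF samples, with replicate numbers 1 to 3 on each side, was hybridised to 1 whole-transcript array each, and what the controls received in place of TNF is not stated in the sources used here. Nothing in the labels says that replicates came from separate cultures or animals. The p-values then reflect only how much these samples differ, which may be technical. No genotype or other agent separates the groups.

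Hyaluronan is a long unbranched chain of alternating glucuronic acid and N-acetylglucosamine that fills the space between brain cells. Synthases in the plasma membrane build it from the nucleotide sugars UDP-glucuronic acid and UDP-N-acetylglucosamine and push it out of the cell, and hyaluronidases and lysosomal enzymes cut it down. Cd44 anchors it to the cell surface and links it to the actin skeleton. In the brain Cd44 is known as a marker of some astrocytes and of astrocyte precursors, and Tnfaip6 (TSG-6) is known for moving heavy chain proteins onto hyaluronan during inflammation.

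Promoters of 5 of the 7 genes were present in the RefSeq-derived table (GRCm38.p6), each running from 250 bases before to 50 bases after the tabled gene start. Those of 3 measured genes are shown 5′ to 3′ on the gene's strand: Cd44 because it rose most of these genes, and Hyal2 and Tnfaip6 because they hold matches to the motifs searched, which are in capitals. Has2 and Has3 had no entry. The Cd44 window is chr2:102901616-102901915 on the minus strand, that of Hyal2 chr9:107568913-107569212 on the plus strand and that of Tnfaip6 chr2:52037863-52038162 on the plus strand.
Cd44: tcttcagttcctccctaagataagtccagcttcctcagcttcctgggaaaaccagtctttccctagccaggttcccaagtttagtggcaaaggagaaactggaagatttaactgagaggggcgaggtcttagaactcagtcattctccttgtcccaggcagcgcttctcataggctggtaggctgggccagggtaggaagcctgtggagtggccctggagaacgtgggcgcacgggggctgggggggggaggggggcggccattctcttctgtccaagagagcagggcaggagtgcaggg
Hyal2: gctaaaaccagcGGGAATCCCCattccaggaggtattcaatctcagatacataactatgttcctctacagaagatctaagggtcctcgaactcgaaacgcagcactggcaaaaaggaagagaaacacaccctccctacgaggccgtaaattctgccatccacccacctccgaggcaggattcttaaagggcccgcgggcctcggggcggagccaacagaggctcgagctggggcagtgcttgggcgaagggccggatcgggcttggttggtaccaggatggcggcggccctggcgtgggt
Tnfaip6: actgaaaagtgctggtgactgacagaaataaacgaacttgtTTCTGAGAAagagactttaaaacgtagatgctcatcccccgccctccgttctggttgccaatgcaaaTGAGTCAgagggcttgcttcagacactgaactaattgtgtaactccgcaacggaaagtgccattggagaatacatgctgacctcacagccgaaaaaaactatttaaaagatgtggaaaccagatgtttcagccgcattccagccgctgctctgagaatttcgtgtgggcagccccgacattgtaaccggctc
The motifs searched on both strands were the NF-kB consensus, the AP-1 site spelled TGANTCA, the STAT site known as GAS and spelled TTCNNNGAA, and the core promoter box spelled TATAAA. Matches of different motifs did not overlap. Hyal2 held the NF-kB consensus from base -238 (base -1 lies just before the start), where the same letters match on both strands. Tnfaip6 held the GAS element from -209 and AP-1 from -142. The windows of Cd44, Has1 and Hyal1 held none of these motifs. Among all 32851 promoter windows supplied 4.51% held the NF-kB consensus, 7.81% AP-1, 8.30% GAS and 13.6% the core promoter box. The windows of Cd44, Has1, Hyal1 and Hyal2 were 57.0% to 58.3% G and C and that of Tnfaip6 47.0%, against a median of 52.7% over all windows. These are matches of letters and were not tested as binding sites.

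Values below are log2 signals, on which a step of 1 is a doubling, and differences are TNF minus control. Such signals belong to their own probe set and are compared between groups, not between genes. They compress large folds and do not go to 0 for silent genes. Detection was not scored, and the lowest values given here may be background. The lower quartile of all genes lay between 6.01 and 6.33 on the 6 arrays and the median between 7.59 and 7.65. Samples with the same number moved together, and both replicate 3 arrays stood apart in their spread, with the 2 highest lower quartiles. A gene is called higher or lower at a limma p under 0.05 after Benjamini-Hochberg adjustment over all genes. By that rule 7.20% of all genes changed, 3.87% higher and 3.33% lower. With the replicate number as a block in the fit, 21.5% changed, 9.73% higher and 11.8% lower.

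TNF cultures had more Cd44 and more Has2 transcript than controls, while Has1 and Has3 stayed within the spread of the replicates. Hyal2 was slightly above its controls in every pair and was called only when the pairs were modelled, and Tnfaip6, named for its induction by TNF, was not called in either fit. So 2 of the 6 measured genes were higher and none lower, against 3.87% and 3.33% of all genes. The genes were chosen with earlier results known, so these shares are no test of the set. With the replicate block 3 were higher and none lower, against 9.73% and 11.8%. In the fit without the block the 4 others had unadjusted p-values from 0.021 to 0.986. All TNF arrays lay above all controls for 3 of the 6, against 12.3% of all genes, and the groups were apart in either direction for 24.0%. The median log2 difference was 0.26 over the 6 genes and -0.003 over all genes.

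**Figure D1:**
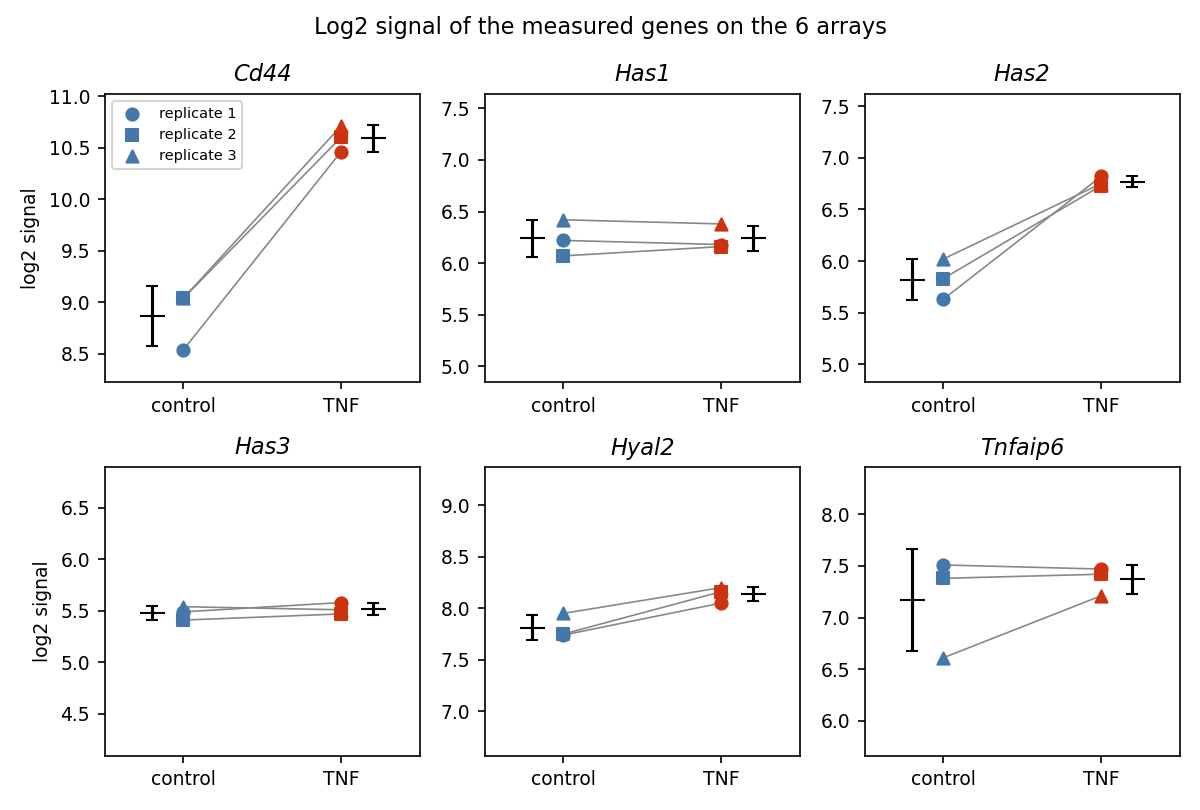
Log2 signal of each measured gene (y axes, all of the same span) in control and TNF cultures; blue and red symbols are single arrays, the symbol's shape and the grey lines give the replicate number, and black marks are the mean and SD of 3 arrays. The 3 TNF arrays lie above all controls for Cd44, Has2 and Hyal2, and the groups overlap for Has1, Has3 and Tnfaip6.

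Cd44 gave log2 signals of 8.54, 9.04 and 9.04 in control cultures 1 to 3. In the TNF cultures with the same numbers it gave 10.46, 10.60 and 10.71. All TNF arrays lay above all controls, and control 1 was the lowest array. The mean went from 8.87 ± 0.29 to 10.59 ± 0.13 (SD, n = 3 per group), which is 3.29-fold with a 95% interval of 2.53 to 4.27 and a limma adjusted p of 8.28e-04. Within the pairs Cd44 was higher by 1.92, 1.55 and 1.68, so that the smallest pair difference was well above the range of the controls, 0.51. It was called in each of the 6 fits that left out 1 array, with limma adjusted p-values from 0.00252 to 0.00479, and without both arrays of replicate 3 (adjusted p = 0.0205). Of all genes tested, 171 had a larger positive difference. The array reads the gene as a whole, and the many splice forms of Cd44, which differ in the stem of the protein, were not told apart.

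The 3 hyaluronan synthases are encoded by separate genes and differ in the length and amount of the chain they make. Has2, which makes most hyaluronan in many tissues and is needed in the embryo, gave 5.63, 5.83 and 6.02 in controls 1 to 3. With TNF it gave 6.82, 6.73 and 6.75. The TNF arrays lay within 0.09 of each other and all above the highest control. The mean rose from 5.82 ± 0.20 to 6.77 ± 0.05 (SD, n = 3 per group), which is 0.94 log2 units (standard error, SE, 0.13) or 1.92-fold (limma adjusted p = 0.00471). The pair differences were 1.20, 0.90 and 0.73. The call held in each of the 6 fits without 1 array and without both arrays of replicate 3 (limma adjusted p = 0.0221), and was lost without both arrays of replicate 1 (difference 0.81, adjusted p = 0.0851) or of replicate 2 (0.96, adjusted p = 0.0794), which leave 2 arrays per group. The control signals of Has2 lay under the lower quartile of all genes, where the compression of the signal is a limit on the fold.

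Has1 gave 6.22, 6.07 and 6.42 in controls 1 to 3 and 6.18, 6.16 and 6.38 with TNF. Replicate 3 was the highest in both groups, and both groups had the same mean of 6.24. The 95% interval of the fold ran from 0.809 to 1.23 (limma adjusted p = 0.997). Has3 gave 5.49, 5.41 and 5.54 in controls and 5.58, 5.47 and 5.51 with TNF, with a fold of 1.03 (interval 0.875 to 1.22, limma adjusted p = 0.934). Neither interval reaches the 1.92-fold change of Has2, on signals that may lie near background for all 3 synthases.

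Set against each other within arrays, Has2 changed by 0.94 log2 units more than Has1 and by 0.90 more than Has3. Each gap was above 0 in 3 of 3 pairs, from 0.77 to 1.24 for Has1 and from 0.76 to 1.10 for Has3. Cd44 in turn changed by 0.78 more than Has2, with pair values of 0.72, 0.65 and 0.95. In these 3 comparisons the within-array gaps of the groups did not overlap, and each had p = 0.1 in a two-sided exact permutation test (0.1 after Benjamini-Hochberg adjustment), the smallest that 3 against 3 arrays can give. The gaps are unequal changes of signal and give no ratio of transcripts between the genes. Each comparison held a gene already called higher, so these p-values add no separate evidence. The test did not use the replicate numbers, and the low signal of Has2 limits its fold.

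**Figure D2:**
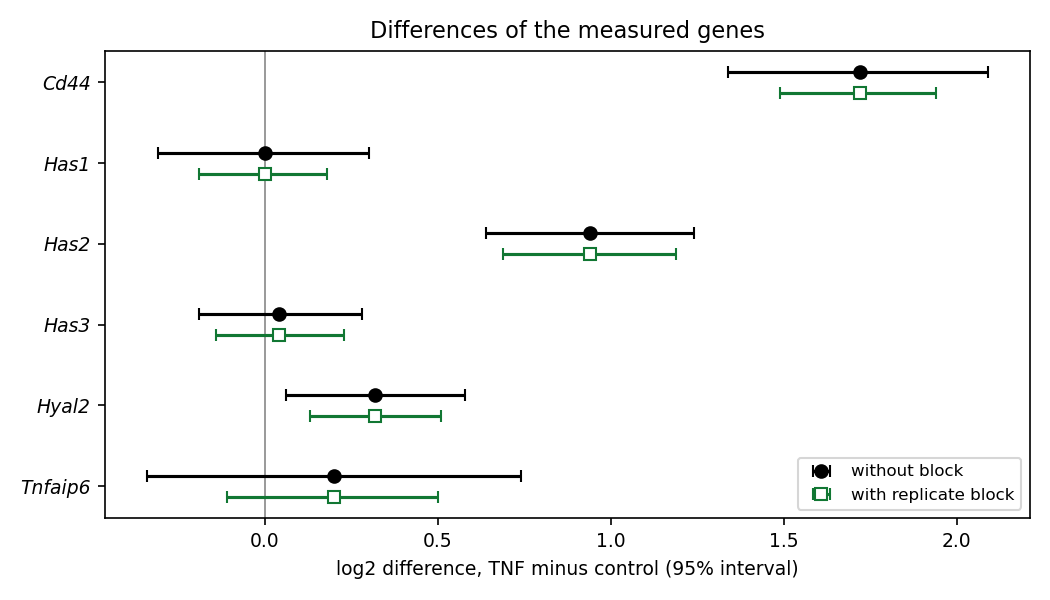
Log2 difference, TNF minus control (x axis), of each measured gene with its 95% interval; black circles are the fit without and green open squares the fit with the replicate number as a block, 3 arrays per group. The intervals of Cd44 and Has2 lie above 0 in both fits, that of Hyal2 is 0.06 to 0.58 without and 0.13 to 0.51 with the block, and those of Has1, Has3 and Tnfaip6 include 0.

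Hyal2 encodes a hyaluronidase held at the cell surface by a lipid anchor, which cuts long chains into fragments. It gave 7.74, 7.75 and 7.95 in controls 1 to 3 and 8.05, 8.16 and 8.20 with TNF. Each TNF array lay above the highest control. The difference of 0.32 (SE 0.11, 95% interval 0.06 to 0.58) is 1.25-fold, and it did not pass (limma adjusted p = 0.157). With the replicate block Hyal2 was called higher (limma adjusted p = 0.0269), the pair differences being 0.31, 0.41 and 0.25. Hyal1, Hyal2 and Hyal3 lie next to each other on chromosome 9 in the RefSeq table. Hyal3 differed by 0.16 (SE 0.11) and was not called in either fit.

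Tnfaip6 gave 7.51, 7.38 and 6.61 in controls 1 to 3. With TNF it gave 7.47, 7.42 and 7.21. Control 3 stood below the other 5 arrays, and the groups overlapped. The difference of 0.20 (SE 0.23) had an interval of 0.791-fold to 1.67-fold (limma adjusted p = 0.813; 0.352 with the replicate block). It came from the third pair, with differences of -0.05, 0.05 and 0.60. Without control 3 the difference was -0.08 (limma adjusted p = 0.891), and without both arrays of replicate 3 it was 0.00. A rise of more than 1.67-fold at 24 h lies outside this interval, on a signal that compresses folds; other times were not measured.

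**Figure D3:**
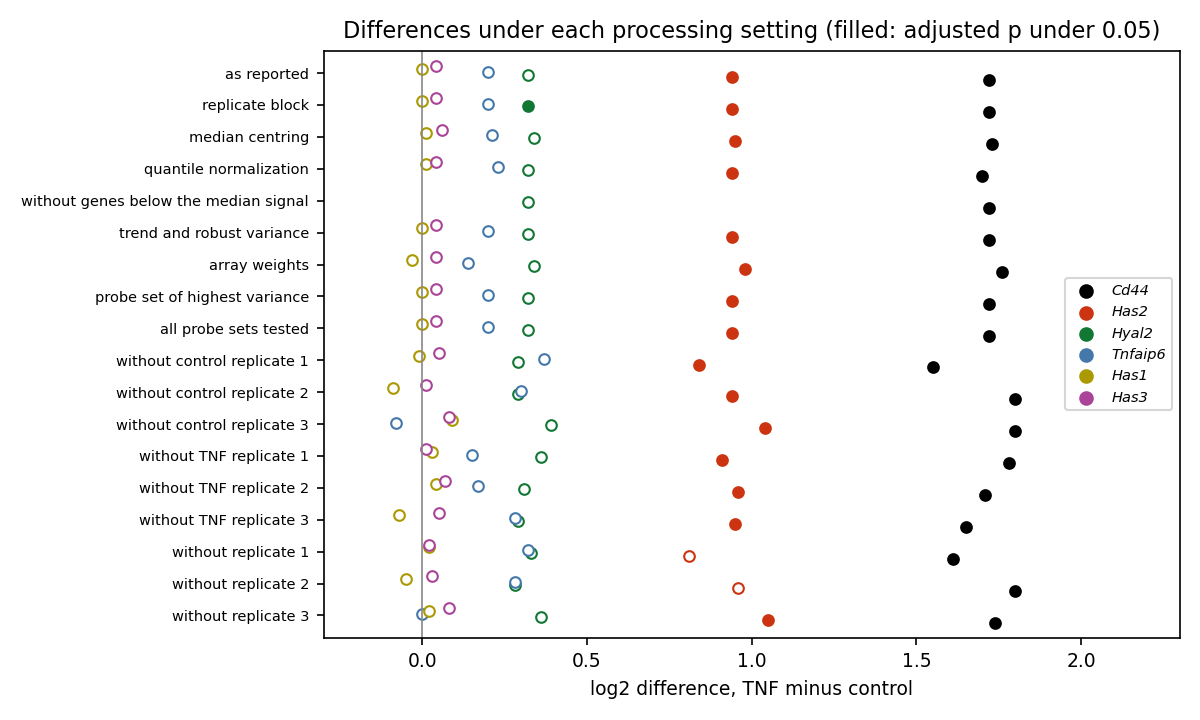
Log2 difference, TNF minus control (x axis), of each measured gene (colours) as reported and under 17 other settings (y axis); filled points have a limma adjusted p under 0.05. Cd44 stays between 1.55 and 1.80 and Has2 between 0.81 and 1.05, and Has1, Has2, Has3 and Tnfaip6 have no point in the setting that leaves out genes below the median signal.

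As each signal belongs to its own probe set, the marker levels given next rank neither genes nor cell types. Astrocyte markers ranged widely in signal, with Slc1a3 at 12.72 ± 0.07 in controls, Aqp4 at 11.77 ± 0.25 and S100b at 6.59 ± 0.13 (SD, n = 3). Some markers of other cell types were also high in controls, such as Stmn2 at 12.09, Map2 at 10.84 and Olig2 at 10.39. Several others of the neuron and oligodendrocyte lists lay below the median of all genes. Rbfox3 was at 6.43, Snap25 at 6.12, Mbp at 6.56 and Mog at 6.48. In the fibroblast and mural list Acta2 was at 13.37 and Fn1 at 12.22, but Lum at 4.05. Which cell types were present was not tested. Of 10 astrocyte markers 3 were lower, Aldoc, Gja1 and Glul (differences -1.01, -1.0 and -0.88), and none higher. Over all genes 3.33% were lower and 3.87% higher. The summed linear signal of the astrocyte markers was 31985 to 39507 in controls and 23441 to 28733 with TNF. With the replicate block 6 astrocyte markers were lower, with Gfap, S100b and Sox9 added. The block also called 2 higher, Aqp4 and Slc1a2, each with a difference of 0.60 (limma adjusted p = 0.0069 and 0.0123). Of all genes 11.8% were then lower and 9.73% higher. Fewer cells of a type and less RNA per cell cannot be told apart in such samples. Cd44 and Has2 are also expressed by cells that can accompany astrocytes in culture. None of 9 measured microglia markers was called, and their sums overlapped, at 745 to 1395 in controls and 763 to 1374 with TNF, with a median difference of 0.03. With the block Itgam was called higher (difference 0.47, limma adjusted p = 0.0137). Of 10 fibroblast and mural markers 2 were lower, Acta2 and Fn1, and the list's sum was 16186 to 18840 in controls and 8215 to 11463 with TNF. Those 2 genes had the highest signals of the list, whose median difference was -0.01, and the collagen genes Col1a1, Col1a2 and Col3a1 differed by -0.03, 0.20 and 0.01. With the block 3 were lower and none higher. Of the other lists, 1 of 8 endothelial, 1 of 7 oligodendrocyte-lineage and 1 of 8 neuron markers were lower and none higher. The lower genes were Kdr, Olig2 and Map2 (differences -0.91, -0.6 and -1.22). With the block 2 neuron markers were lower and 1 higher, Gad1 (difference 0.55, limma adjusted p = 0.00792), and the other 2 counts were the same. The neuron sum was 5918 to 8282 in controls and 4631 to 5544 with TNF. The oligodendrocyte-lineage sum was 1832 to 2245 in controls and 1559 to 1667 with TNF. The endothelial sums overlapped, at 675 to 793 in controls and 567 to 796 with TNF. The median differences of these lists were -0.07, -0.01 and 0.03, in that order. No marker was at 0, since these signals have a floor. The part of these shifts in the rise of Cd44 and Has2 was not tested.

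Genes of the wider hyaluronan system moved both ways. Beside the counts of each list below, 3.87% of all genes were higher and 3.33% lower, or 9.73% and 11.8% with the block. Of 7 measured enzymes that supply the sugars 2 were lower and none higher, with a median difference of -0.10. Ugp2, which makes UDP-glucose, gave 10.71, 10.82 and 10.89 in controls and 9.42, 9.48 and 9.34 with TNF, 2.62-fold lower (limma adjusted p = 3.08e-04). Ugdh, which turns UDP-glucose into UDP-glucuronic acid, fell by 0.46 (SE 0.11, limma adjusted p = 0.048), and that call was lost in each of the 6 fits without 1 array (adjusted p from 0.0818 to 0.165). The enzymes of the UDP-N-acetylglucosamine branch, Gfpt1, Gfpt2, Gnpnat1, Pgm3 and Uap1, differed by -0.17 to 0.14 and were not called in either fit.

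Of 9 other measured genes of hyaluronan breakdown none was called, with or without the block. Their differences ran from -0.14 to 0.21 with a median of 0.09, and 0 had an unadjusted p under 0.05. The 2 of smallest p were Hyal3, given above, and Gusb, the lysosomal beta-glucuronidase, at 0.14 (SE 0.11, limma adjusted p = 0.66). Cemip, which binds and breaks down hyaluronan outside lysosomes, differed more between replicates than between groups: 9.26, 10.82 and 9.86 in controls and 9.69, 10.81 and 10.08 with TNF.

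**Figure D4:**
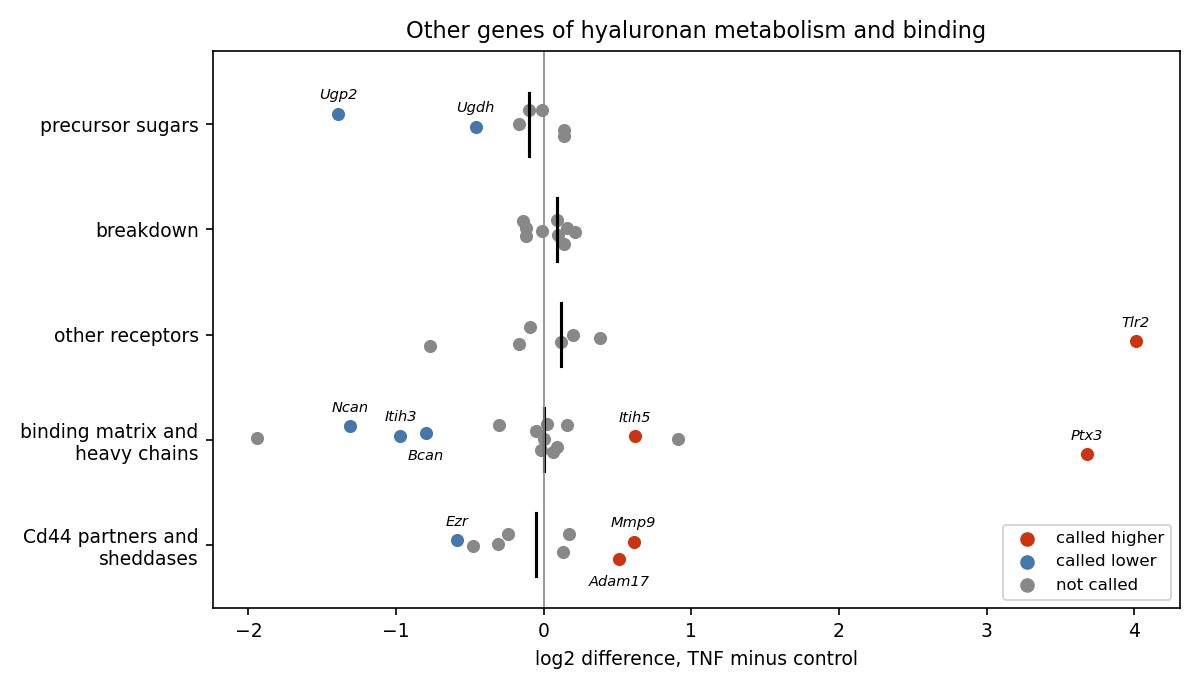
Log2 difference, TNF minus control (x axis), of other genes of hyaluronan metabolism and binding by list (y axis); each point is 1 gene, red if called higher, blue if called lower and grey if not called, spread vertically for legibility, and black bars are list medians. Tlr2 and Ptx3 stand apart at 4.01 and 3.68, and the list medians lie between -0.10 and 0.12.

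Among 7 other receptors 1 was higher and none lower, with a median difference of 0.12. Tlr2, a pattern recognition receptor reported to sense hyaluronan fragments, gave 7.31, 7.20 and 7.56 in controls and 11.18, 11.57 and 11.37 with TNF. It was 16.2-fold higher (limma adjusted p = 2.03e-05), a larger difference than that of Cd44. Layn, a C-type lectin receptor of hyaluronan, differed by 0.38 (SE 0.11) and was called higher with the block (limma adjusted p = 0.0219; 0.0926 without). It was also called with the filter on dim genes (limma adjusted p = 0.0381), trend and robust variance (0.0416) and array weights (0.0315). It was not called in 4 of 8 other settings with all arrays, or in any of 9 with arrays left out. Hmmr, the mitotic spindle protein and hyaluronan receptor RHAMM, differed by -0.77 (SE 0.58, limma adjusted p = 0.611). Its control 2 stood at 7.43 against 5.05 and 5.51 in controls 1 and 3, and without it the difference was -0.06; without control 1 it was -1.24. The lymphatic and endothelial receptors Lyve1, Stab1 and Stab2 were not called in either fit.

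Of 15 measured hyaluronan-binding matrix proteins and heavy chain genes 2 were higher and 3 lower, with a median difference of 0.00. Ptx3, a pentraxin that works with Tnfaip6 and the heavy chains in building hyaluronan matrix, gave 7.15, 7.23 and 6.96 in controls and 10.39, 10.81 and 11.18 with TNF, 12.8-fold higher (limma adjusted p = 6.49e-05). Itih5, a heavy chain family gene, rose by 0.62 (limma adjusted p = 0.0491) and Itih3, another, fell by 0.97 (adjusted p = 0.0367). The brain lecticans Ncan and Bcan, which hang on hyaluronan around synapses, fell by 1.31 and 0.80 (limma adjusted p = 0.0443 and 0.0207). These 4 calls were sensitive to single arrays. That of Itih5 was lost in all 6 fits without 1 array (highest adjusted p = 0.162, without TNF 2), and also with median centring (0.051) and quantile normalization (0.0752). That of Itih3 was lost in 5, all but the fit without control 2 (highest 0.126, without control 1). Ncan lost the call without control 2 (adjusted p = 0.126), control 3 (0.125), TNF 1 (0.107) or TNF 3 (0.0907), and with array weights (0.0793). Bcan lost it without control 2 (0.0764), control 3 (0.075) or TNF 1 (0.0531).

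With the replicate block Vcan, the versican core protein, was called higher in that list and Hapln1, a link protein that fastens lecticans to hyaluronan, lower. Vcan gave 6.33, 8.27 and 7.18 in controls and 7.68, 9.04 and 7.78 with TNF, higher in each pair though the groups overlapped (limma adjusted p = 0.447, and 0.00415 with the block). Hapln1 gave 6.79, 9.44 and 6.78 in controls and 5.24, 6.33 and 5.63 with TNF (difference -1.94, SE 0.68, limma adjusted p = 0.166, and 0.00553 with the block). Without control 2 the difference of Hapln1 was -1.05, and without control 1 that of Vcan was 0.44. Replicate 2 was the highest in both groups for both genes.

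Of 8 measured partners and proteases of Cd44, 2 were higher and 1 lower, with a median difference of -0.05. Ezr, the ezrin that ties the tail of Cd44 to actin, fell by 0.59 (SE 0.10, limma adjusted p = 0.012), and lost the call without control 1 (adjusted p = 0.0549) and without both arrays of replicate 1 (0.144), 2 (0.153) or 3 (0.0543). Its relative Msn differed by 0.13. Adam17, a protease of many cell-surface proteins, rose by 0.51 (limma adjusted p = 0.0335) and Mmp9, a secreted protease that binds Cd44, by 0.61 (adjusted p = 0.036). Adam17 lost the call in all 6 fits without 1 array (highest adjusted p = 0.135, without TNF 2) and Mmp9 in 5, all but the fit without control 3 (highest 0.138, without control 1). Adam10, the other main protease that sheds Cd44, and Rdx, radixin, were called lower with the block, with differences of -0.48 and -0.31 (limma adjusted p = 0.00958 and 0.0361; 0.0578 and 0.209 without). Rdx was called in no other setting. Adam10 was also called with quantile normalization (limma adjusted p = 0.0429), the filter on dim genes (0.0265), trend and robust variance (0.0278) and array weights (0.046). It was not called in 3 of 8 other settings with all arrays, or in any of 9 with arrays left out.

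The genes whose pattern over the 6 arrays was most like that of Cd44 were Eif4e3, Sik1, Il13ra1, Sod3 and Ifit3. Likeness is the root mean square difference between the profiles after each gene's control mean is subtracted, and it ran from 0.099 to 0.161 log2 units. Eif4e3 gave 8.10, 8.45 and 8.38 in controls and 9.80, 9.91 and 10.06 with TNF, sharing with Cd44 the low control 1. For Has2 the nearest were Osmr, Fam167a, Gas7, Znrf1 and D630003M21Rik, at 0.046 to 0.091. Osmr, a subunit of the oncostatin M receptor, gave 10.63, 10.89 and 11.05 in controls and 11.77, 11.74 and 11.83 with TNF, with the same order of controls as Has2. Because these genes were picked for likeness over the same arrays, such shared features are no separate result.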

How the data were processed

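RNA was measured on Affymetrix Mouse Gene 1.0 ST arrays, 1 per sample. The deposited log2 values of 35544 probe sets come, per the submitters' processing notes, from RMA (background correction, quantile normalization between arrays, probe summary), beside which limma is named with no version; the genome build is not given in the labels. The log base was read from the values, 2.04 to 14.37. RMA shrinks large folds. The number of arrays limits the precision.

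In the platform annotation 21777 probe sets have exactly 1 gene symbol and were used; the 1621 with several symbols and the 12146 without one were not. The test was limma 3.58.1 (R 4.3.3; lmFit, eBayes; 4 residual and 3.70 prior degrees of freedom), two-sided, without a block, on 19926 genes. Groups and numbers came from the sample titles. The pairing by number rests on the values: deviations from group means correlated at 0.55, 0.65 and 0.75. Tables and plots were made in Python 3.11.15 (matplotlib 3.10.9, numpy 2.4.6, pandas 2.3.3). The code of the fits was also run on simulated data, and the outcome, not given here, says nothing about single calls.

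Genes named were the 7 chosen genes, of each list the called ones, at most 4 of smallest p (2 where none was called), and the 5 of most like pattern for each called member. Itih5, Layn, Hmmr, Cemip, Vcan, Hapln1, Adam10, Rdx, Msn, the sugar-branch genes, the lymphatic receptors and the markers were named after their values were seen. The genes and lists were chosen with earlier results of these data known. Alternatives were the block, median centring, quantile normalization, a filter on dim genes, trend and robust variance, array weights, another probe set, all probe sets, and arrays or replicate numbers left out.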

Additional observations from a re-analysis of the deposited data

How the results depend on the processing

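Cd44 stayed higher and called in 17 of 17 other settings, at 1.55 to 1.80 over the fits that left out arrays. Has2 was called in 14 of 16, at 0.81 to 1.05; without replicates 1 or 2 it was not. Has2, Has1, Has3 and Tnfaip6 have no value without genes below the median signal, so the number of members called higher was 1 there; it was 1 to 2 over the left-out fits and 0 were lower in all. With the replicate block Hyal2 (0.32) was called and no other member's call changed. Has1 turned to 0.01 with median centring and 0.01 with quantile normalization, and ranged from -0.09 to 0.09 with arrays left out; Tnfaip6 ranged from -0.08 to 0.37. These sign changes are of differences that were not called, and their cause was not tested. The pathway lists held 5 higher and 6 lower genes as reported, 2 and 2 with all probe sets tested (Tlr2, Ptx3, Ugp2 and Ezr), and 2 to 3 and 1 to 4 with arrays left out. Over all genes 771 were higher and 663 lower, 1938 and 2351 with the replicate block, 661 and 436 with all probe sets, and 273 to 669 and 106 to 455 with arrays left out, where fewer arrays were tested. Median centring and quantile normalization moved the median difference of all genes by under 0.1. Without both arrays of a number, Ugdh, Itih5, Ncan, Bcan, Ezr and Adam17 were not called in any of the 3 fits, Itih3 was called only without replicate 2 and Mmp9 only without replicate 3. Signal over background was not measured.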
